A study of Mus musculus with 8 samples.

Results

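The 8 genes of haemostasis and fibrinolysis described here are Vwf, F8, Thbd, Procr, Tfpi, F2r, Plat and Entpd1. They were taken by symbol from the feature list of the second run and matched to the first run by Ensembl identifier. All 8 were found among the 30406 gene identifiers that both lists hold. Their levels were measured by single-cell RNA sequencing (10x Genomics 3′ chemistry, UMI counts) in cells sorted for yellow fluorescent protein (YFP). The mice were male and carried ROSA26-eYFP+/+ with Cdh5-CreERT2+, a Cre driven by the promoter of the VE-cadherin gene, so that tamoxifen marks endothelial cells with YFP. Tissue was collected and digested with Actinomycin D, a blocker of transcription. All groups shared this genotype and were fed tamoxifen for 2 weeks, starting at an age of 6 weeks. The diets began at an age of 8 weeks and lasted 12 to 13 weeks: normal chow with 5.8% fat, or a diet with 60% fat (the high fat diet). The 4 groups are mesentery on chow, mesentery on high fat diet, epididymal adipose tissue on chow and epididymal adipose tissue on high fat diet. Each group has 2 libraries, from runs A and B of the whole experiment, and each library is 1 pool of tissue from 6 mice. The spread between libraries is therefore a spread between pools, and cells were not counted as replicates.

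Blood that touches intact endothelium stays fluid because the cells carry inhibitors of clotting on their surface and keep clotting factors in store. Von Willebrand factor (Vwf) tethers platelets and carries coagulation factor VIII (F8), and both are made by endothelial cells. Thrombomodulin (Thbd) turns thrombin into an activator of protein C, an anticoagulant. The endothelial protein C receptor (Procr) presents protein C to the thrombin-thrombomodulin complex, and tissue factor pathway inhibitor (Tfpi) blocks the start of coagulation. Protease-activated receptor 1 (F2r) is the receptor through which thrombin signals to the cell. Tissue plasminogen activator (Plat) starts the breakdown of fibrin, and the ectonucleotidase CD39 (Entpd1) removes extracellular ATP and ADP, which activate platelets.

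In the GRCm38 mouse assembly (GENCODE annotation; the submitters' processing notes name mm10, the same assembly) Vwf lies on chromosome 6 at 125546774 to 125686679 on the plus strand. F8 spans 75172715 to 75382615 on the minus strand of chromosome X. Chromosome 2 holds Tfpi at 84432855 to 84476775 on the minus strand, Thbd at 148404466 to 148408188 on the minus strand and Procr at 155751117 to 155755471 on the plus strand. F2r lies on chromosome 13 at 95601803 to 95618487 on the minus strand, Plat on chromosome 8 at 22757727 to 22782844 on the plus strand and Entpd1 on chromosome 19 at 40612366 to 40741602 on the plus strand. F8 shares 217 bases with Fundc2 on the opposite strand and holds 2 processed pseudogenes, and Entpd1 holds 2 processed pseudogenes and a sense intronic transcript, so a small part of their counts could be misassigned.

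Windows of 250 bases before a RefSeq start are printed for 3 genes with opposite class patterns: F2r and Tfpi, whose mean level was highest in lymphatic-like cells, and Entpd1, which was close to absent there. Windows come from RefSeq (GRCm38.p6), which matched 5 of the 8 genes, and the entries for Vwf, Thbd and Plat were not used here. Against the GENCODE models 21 bases of the F2r window and 16 of the Tfpi window lie in an exon. RefSeq lists a further start for Tfpi and for Entpd1, and the window at the more upstream start is printed. Each sequence is written 5′ to 3′ on the gene's strand. Capitals mark matches to the KLF motif CCACCC or the ETS motif CAGGAA on either strand. Also searched were the GATA motif AGATAA and the FOX motif TGTTTAC on either strand, the TATA box TATAAA on the gene's strand and an NF-kB motif on either strand. The F2r window is chr13:95618467-95618716, the Tfpi window chr2:84476760-84477009 and the Entpd1 window chr19:40612116-40612365.
F2r: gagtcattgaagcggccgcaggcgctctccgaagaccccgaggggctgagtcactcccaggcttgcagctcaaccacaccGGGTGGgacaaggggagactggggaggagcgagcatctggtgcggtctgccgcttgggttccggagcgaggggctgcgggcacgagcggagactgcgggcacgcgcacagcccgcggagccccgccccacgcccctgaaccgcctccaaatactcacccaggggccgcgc
Tfpi: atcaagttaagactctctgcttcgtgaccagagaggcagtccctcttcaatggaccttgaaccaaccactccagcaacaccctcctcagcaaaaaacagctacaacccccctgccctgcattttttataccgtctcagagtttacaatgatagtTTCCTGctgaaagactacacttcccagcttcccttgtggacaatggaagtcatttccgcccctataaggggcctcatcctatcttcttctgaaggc
Entpd1: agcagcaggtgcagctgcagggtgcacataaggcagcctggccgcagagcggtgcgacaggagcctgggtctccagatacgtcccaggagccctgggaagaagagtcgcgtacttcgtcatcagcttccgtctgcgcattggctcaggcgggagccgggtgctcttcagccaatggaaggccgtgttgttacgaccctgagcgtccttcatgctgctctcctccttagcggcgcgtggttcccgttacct
The F2r window holds 1 KLF match, read as GGGTGG at position -170 from the start, and 28.1% of all 32851 windows in the table hold a KLF match. The Tfpi window holds 1 ETS match, read as TTCCTG at position -96, against 25.7% of all windows. The window of the other Tfpi start, which is not printed, holds 2 ETS matches and 1 GATA match. None of the motifs searched was found in either Entpd1 window, which says only that these letters are not in them. A GATA match was in 9.99% of all windows, a FOX match in 3.17%, an NF-kB match in 0.0852% and a TATA match in 7.59%.

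Run A gave 3461360 to 6714473 UMIs per library over 1352 to 2780 barcodes, and run B 18829960 to 36779289 UMIs over 3189 to 6218 barcodes. After filters on UMIs, genes and mitochondrial counts and removal of called doublets, 23147 of 27944 barcodes were used, of which 18044 fell into 19 endothelial clusters. Libraries shared 0 to 10 barcodes in pairs (at most 0.31%). Clusters were named from marker lists as arterial-like, capillary-like, venous-like or lymphatic-like, and the 8 genes and the other haemostasis genes listed below were left out of both the clustering and the marker lists. The sort label held for most cells only: clusters with macrophage, mural, fibroblast, adipocyte, T cell and B cell markers were also present and serve as a background here. Venous-like cells came mainly from cluster 8 (Adgrg6, Selp and Sele) in mesentery on chow (81.5% of the class in run A and 61.1% in run B), and mainly from clusters 7 (Cysltr1, Ackr1) and 13 in adipose tissue on chow. Run A held only 30 to 172 capillary-like cells per library, against 951 to 2132 in run B. Levels are CPM, the UMIs of a gene summed over the cells of a class in a library and scaled to a common total of UMIs, given as mean ± SD over the 8 libraries unless said otherwise.

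Vwf was highest in the venous-like cells. Its level there was 1971 ± 522 CPM (SD, n = 8), with 1060 CPM as the lowest library, 2026 CPM as the median and 2600 CPM as the highest. Arterial-like cells followed at 363 ± 148 CPM (186 to 661 CPM), and no library of either class overlapped with the other. Venous-like exceeded arterial-like cells by 2.49 ± 0.35 (SD of 8 libraries) on the log2(CPM + 1) scale, in 8 of 8 libraries. The exact 2-sided sign-flip permutation test paired within libraries gave p = 0.00781, the smallest it can give with 8 libraries, and 0.0134 after Benjamini-Hochberg adjustment over the 48 class comparisons of the 8 genes. Arterial-like cells in turn exceeded capillary-like cells by 2.99 ± 1.38, in 8 of 8 libraries, with the same exact p and adjusted p. Capillary-like cells (83.9 ± 103 CPM) and lymphatic-like cells (39.1 ± 27.3 CPM) could not be ordered, with an adjusted p of 0.633 in the same exact permutation test. The capillary level differed between the runs: run A libraries averaged 153 CPM and run B libraries 15.1 CPM, and run B was lower in 4 of 4 groups. That difference went with the small numbers of capillary-like cells in run A, and their part in it was not tested.

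Within the venous-like class Vwf was uneven. It averaged 3384 ± 276 CPM (n = 4 libraries) in cluster 13 and 3060 ± 523 CPM (n = 6) in cluster 8, and 1175 ± 599 CPM (n = 8) in cluster 7, whose leading gene Ackr1 is known from postcapillary venules. The small cluster 29 (Glycam1, Madcam1; 2 libraries) had 426 ± 18.8 CPM. Among arterial-like cells, cluster 6 (Gkn3, Igf2) held 656 ± 190 CPM and cluster 4 (Col8a1, Alox12) 237 ± 134 CPM (n = 8 each). A cluster led by Klk10 and Cytl1, which stayed unnamed because Pi16, a fibroblast marker, was among its 10 leading genes and no listed arterial marker was, held 882 ± 235 CPM (n = 6). In cells thinned to 1000 UMIs, 68.5% of venous-like cells had a Vwf UMI (85.6% before thinning, median depth 4138 UMIs, 234 shallower cells left out). The same share was 0.365% in T cell-like cells (0.781% before thinning, median depth 3223 UMIs, 26 cells left out), which are not expected to make Vwf.

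**Figure D1:**
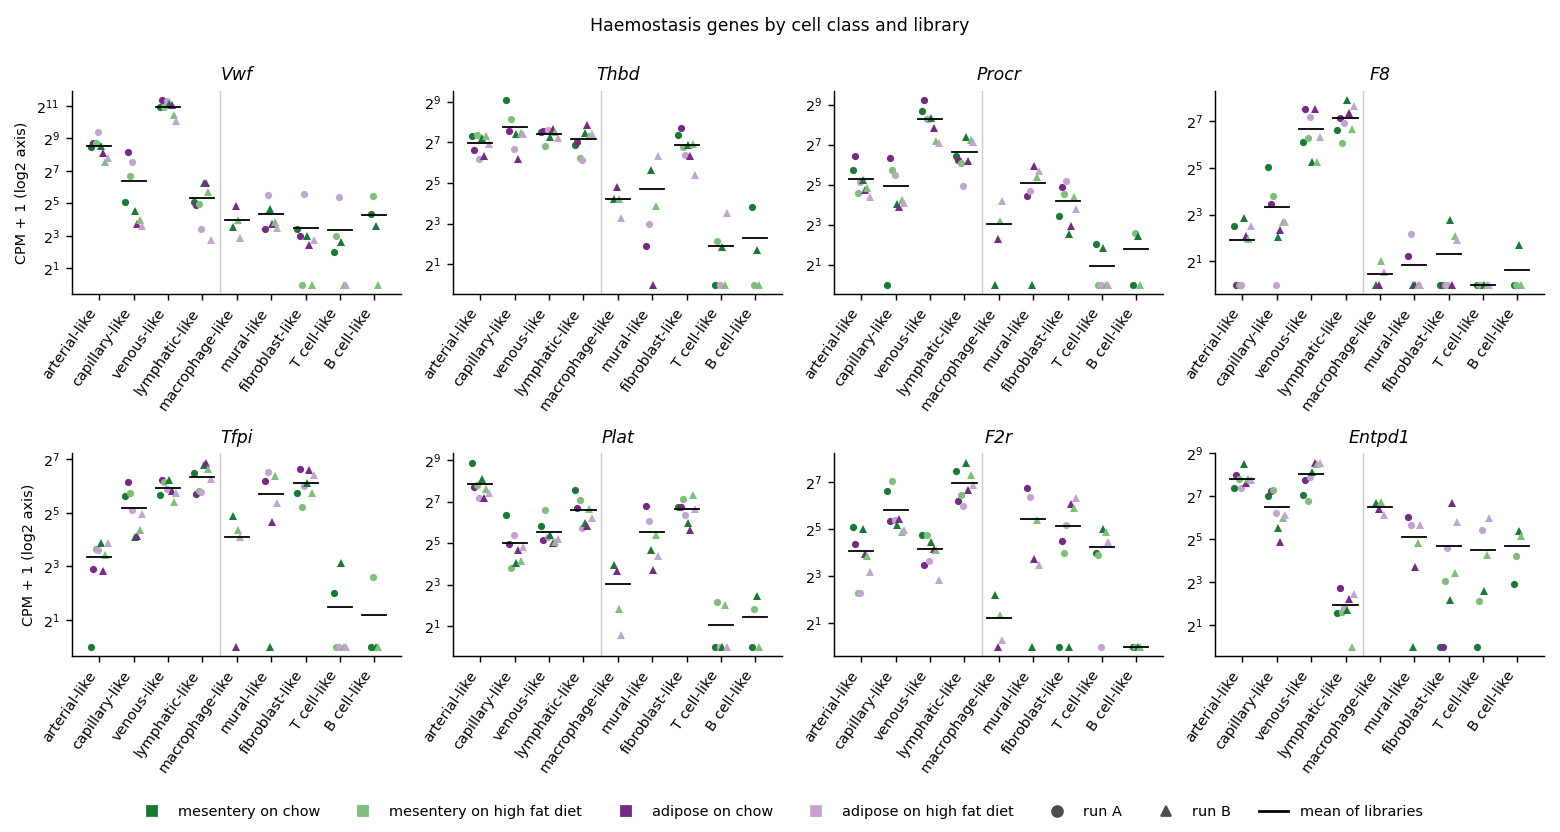
Level of each gene (CPM + 1, log2 axis) in 4 endothelial classes and 5 other cell classes. Each point is 1 library with at least 20 cells of the class, coloured by tissue and diet and shaped by run, and black lines are means over libraries. Vwf points of venous-like cells lie at 1060 to 2600 CPM, above those of all other classes, while Thbd points overlap across the 4 endothelial classes.

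F8, the cofactor that circulates bound to von Willebrand factor, had a different order from Vwf. Lymphatic-like cells held 142 ± 57.3 CPM (65.9 lowest, 131 median, 238 highest) and venous-like cells 102 ± 61 CPM (36.8 lowest, 78.5 median, 185 highest). These 2 classes could not be ordered (lymphatic-like minus venous-like 0.61 ± 1.09 on the log2 scale, higher in 4 of 8 libraries, adjusted exact permutation p = 0.22). Both exceeded capillary-like cells (9.19 ± 10.2 CPM) and arterial-like cells (2.73 ± 2.47 CPM) in 8 of 8 libraries, with adjusted exact permutation p = 0.0134 for each. In arterial-like cells F8 had 0 counts in 3 run A libraries, which allows up to 9.86 to 11.6 CPM there, and 1 to 15 counts in the other 5.

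The highest F8 level of any endothelial cluster was in a small cluster led by Marco, Clec1b and Stab2. It held 1829 CPM in mesentery on chow A (61 cells) and 1661 CPM in mesentery on chow B (189 cells), and no other library had 20 of its cells. Vwf was at 6.60 and 3.64 CPM in the same cells, so the cells with most F8 transcript held almost none of the transcript of its carrier. This cluster met no class by the naming limits. It held Prox1 at 578 and 451 CPM, Lyve1 at 2833 and 3005 CPM, Maf at 938 and 1357 CPM and Flt4 at 373 and 245 CPM, which are known lymphatic genes. Other lymphatic markers were lower: Reln at 92.5 and 36.4 CPM, Pdpn at 29.7 and 62.4 CPM and Nts at 46.2 and 0 CPM. Beside these it held Itga2b, a platelet integrin gene, at 495 and 517 CPM. Mrc1, from the macrophage list, was at 301 and 240 CPM, and the other macrophage markers at most at 6.60 CPM. The platelet markers Ppbp, Gp5, Gp6 and Gp9 had 0 counts in it (which allows up to 9.91 CPM in run A and 1.82 CPM in run B) and Pf4 was at 6.60 and 7.27 CPM. Stab2, one of its leading genes, encodes a scavenger receptor known to clear von Willebrand factor and factor VIII. Second to it was cluster 26 (Coch, Il4i1), counted as lymphatic-like, with 375 and 385 CPM of F8 in the same 2 libraries.

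In the largest lymphatic-like cluster (cluster 5: Reln, Ccl21a, Mmrn1, Lyve1) F8 differed by tissue. In adipose tissue the chow libraries held 156 and 197 CPM (runs A and B) and those on high fat diet 131 and 186 CPM. In the mesentery the chow libraries held 15.5 and 23.8 CPM and those on high fat diet 51.3 and 107 CPM. The adipose libraries were thus all above the mesenteric libraries in this cluster, a description made after the values were seen and not tested. Among venous-like cells F8 was highest in cluster 13 at 289 ± 81.7 CPM (n = 4), a cluster with enough cells only in adipose tissue, and was 92.8 ± 41.6 CPM in cluster 8 (n = 6) and 30.8 ± 19.3 CPM in cluster 7 (n = 8).

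**Figure D2:**
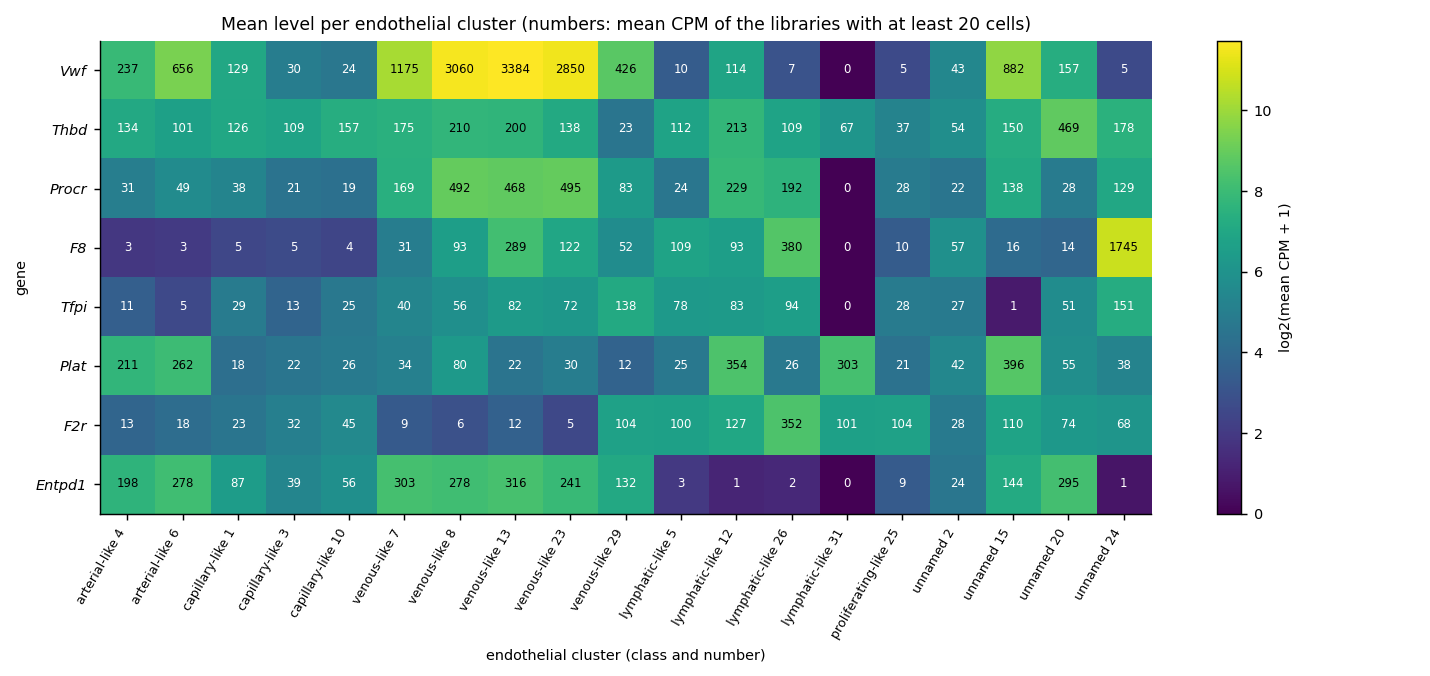
Mean CPM of the 8 genes (rows) in each endothelial cluster (columns, by class and number), over the libraries with at least 20 cells of the cluster; colour is log2(mean CPM + 1). The F8 maximum (1745 CPM) is in the unnamed cluster 24, the one led by Marco, where Vwf is near 0, and Vwf peaks in venous-like clusters 13, 8 and 23 (3384, 3060 and 2850 CPM).

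Thbd, the thrombin-binding cofactor of the protein C pathway, had similar levels in the 4 endothelial classes: the largest of its 6 class differences was smaller than that of any other member. Capillary-like cells held 212 ± 145 CPM (71.8 lowest, 173 median, 535 highest), venous-like cells 170 ± 29.7 CPM (113, 182 and 198), lymphatic-like cells 140 ± 55.4 CPM (68.4, 142 and 234) and arterial-like cells 125 ± 38 CPM (72.2, 132 and 166). The ranges of all 4 classes overlapped. Only the capillary-like excess over arterial-like cells passed the test (0.58 ± 0.58 on the log2 scale, 7 of 8 libraries, adjusted exact permutation p = 0.025), and neighbours in this order could not be separated (adjusted p = 0.159 to 0.703). Its highest cluster was cluster 20 (Scgb3a1, Esm1, Col13a1), an unnamed endothelial cluster, at 469 ± 173 CPM (n = 3). Single clusters were far lower, with 22.9 ± 18.0 CPM in the venous-like Glycam1 cluster (n = 2), 37.2 ± 8.83 CPM in proliferating endothelial cells (n = 3) and 54.4 ± 20.5 CPM in unnamed cluster 2 (n = 7). Fibroblast-like cells also held Thbd, at 114 ± 51.5 CPM (n = 8), while T cell-like cells held 2.73 ± 4.04 CPM (n = 6).

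Procr, the receptor that presents protein C to the thrombin-thrombomodulin complex, was highest in venous-like cells. It stood at 306 ± 148 CPM there (135 lowest, 310 median, 591 highest), against 97.2 ± 47.6 CPM in lymphatic-like cells (29.3, 79.8 and 167). The difference was 1.67 ± 1.28 on the log2 scale, seen in 6 of 8 libraries, with an adjusted exact permutation p of 0.0441. It depended on the run: run A libraries held 307 to 591 CPM in venous-like and 29.3 to 85.9 CPM in lymphatic-like cells. In run B the chow libraries held 321 CPM against 167 CPM (mesentery) and 229 CPM against 71.8 CPM (adipose tissue), and those on high fat diet 144 CPM against 147 CPM and 135 CPM against 137 CPM. The test takes the libraries as independent, and shifts shared by a run are not in its p. Lymphatic-like exceeded arterial-like cells (38.0 ± 21.6 CPM) by 1.31 ± 1.13 in 6 of 8 libraries, also at an adjusted exact permutation p of 0.0441. Arterial-like and capillary-like cells (29.9 ± 26.5 CPM) could not be ordered (adjusted p = 0.259). The 30 capillary-like cells of mesentery on chow A had 0 counts, which allows up to 48.7 CPM. Procr marked the same venous-like clusters as high Vwf, at 492 ± 83.5 CPM in cluster 8 (n = 6) and 468 ± 176 CPM in cluster 13 (n = 4), against 169 ± 104 CPM in cluster 7 (n = 8). It was lower in run B than in run A in 4 of 4 groups of venous-like cells, by 1.00 ± 0.45 on the log2 scale (SD over groups). Lymphatic-like cells were uneven too: cluster 12 (Ackr4, Nts) held 229 ± 102 CPM and cluster 5 23.5 ± 15.8 CPM (n = 8 each).

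Tfpi, the inhibitor of the tissue factor complex, was highest in lymphatic-like cells at 81.1 ± 26.2 CPM (51.4 lowest, 81.9 median, 117 highest). Venous-like cells held 59.8 ± 12.1 CPM (41.4, 57.2 and 74.9), and these 2 classes could not be separated (0.39 ± 0.66, adjusted exact permutation p = 0.159). Capillary-like cells held 35.8 ± 19.4 CPM and were below venous-like cells by 0.88 ± 0.73 in 8 of 8 libraries (adjusted exact permutation p = 0.0134). Arterial-like cells had least, at 9.10 ± 4.67 CPM, and were below capillary-like cells by 2.00 ± 1.71 in 8 of 8 libraries (adjusted exact permutation p = 0.0134). The Marco cluster (116 and 187 CPM) and the Glycam1 cluster (138 ± 9.38 CPM), each with 2 libraries, both from the mesentery, held the highest endothelial levels. Cells outside the endothelium held Tfpi too: fibroblast-like cells had 69.2 ± 22.4 CPM (n = 8) and mural-like cells 51.6 ± 36.0 CPM (n = 6).

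F2r, the thrombin receptor, was highest in lymphatic-like cells, which held 124 ± 56.4 CPM (62.3 lowest, 109 median, 225 highest). Capillary-like cells followed at 55.4 ± 37.3 CPM (28.6, 40.3 and 130), lower by 1.24 ± 1.07 on the log2 scale in 7 of 8 libraries (adjusted exact permutation p = 0.025). Venous-like cells (16.6 ± 7.21 CPM) and arterial-like cells (15.8 ± 11.2 CPM) had least and could not be ordered (adjusted p = 0.614). Capillary-like exceeded venous-like cells by 1.58 ± 0.59 in 8 of 8 libraries (adjusted exact permutation p = 0.0134). Cluster 26 of the mesentery on chow held most, at 432 and 272 CPM in runs A and B. The Klk10 cluster held 110 ± 17.4 CPM (n = 6), against 17.5 ± 20.8 CPM in arterial-like cluster 6 and 13.2 ± 9.69 CPM in arterial-like cluster 4 (n = 8 each). Proliferating endothelial cells held 104 ± 30.9 CPM (n = 3).

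Plat, the fibrinolytic activator, was the member with its highest level in arterial-like cells. They held 227 ± 107 CPM (141 lowest, 200 median, 470 highest), against 95.1 ± 46.1 CPM in lymphatic-like cells (51.3, 86.3 and 187). The difference was 1.27 ± 0.41 in 8 of 8 libraries (adjusted exact permutation p = 0.0134). Lymphatic-like exceeded venous-like cells (45.7 ± 22.1 CPM) by 1.01 ± 0.53 in 8 of 8 libraries at the same adjusted p of the exact permutation test, and venous-like and capillary-like cells (31.1 ± 22.1 CPM) could not be ordered (adjusted p = 0.132). Lymphatic-like clusters were uneven in Plat: cluster 12 (Ackr4, Nts, Klrb1f) held 354 ± 266 CPM (n = 8; 130 to 860 CPM) and cluster 5 25.1 ± 9.13 CPM (n = 8). The Klk10 cluster held 396 ± 209 CPM (n = 6), the highest mean of all clusters. Fibroblast-like cells held 99.6 ± 36.6 CPM (n = 8), a level like that of lymphatic-like cells.

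Entpd1, which breaks down extracellular nucleotides, was far lower in lymphatic-like cells than in venous-like, arterial-like and capillary-like cells. Venous-like cells held 261 ± 107 CPM (109 lowest, 260 median, 380 highest) and arterial-like cells 225 ± 61.0 CPM (164, 219 and 358), and these could not be ordered (0.13 ± 0.69, adjusted exact permutation p = 0.636). Capillary-like cells held 89.7 ± 48.7 CPM, below arterial-like cells by 1.48 ± 0.98 in 8 of 8 libraries (adjusted exact permutation p = 0.0134). Lymphatic-like cells held 2.81 ± 1.72 CPM, with 0 to 6 counts per library. The venous-like excess over them was 6.14 ± 1.09 on the log2(CPM + 1) scale in 8 of 8 libraries (adjusted exact permutation p = 0.0134). An Entpd1 UMI was found in 21.0% of venous-like cells thinned to 1000 UMIs (53.3% unthinned, median depth 4138 UMIs) and in 0.268% of lymphatic-like cells (0.974% unthinned, median depth 2653 UMIs, 176 shallower cells left out). The Marco cluster had 0 counts in run A, which allows up to 9.91 CPM, and 2 counts in run B (1.21 CPM). Low levels were not confined to lymphatic-like cells: proliferating endothelial cells held 9.42 ± 1.76 CPM (n = 3) and unnamed endothelial cluster 2 held 23.5 ± 18.4 CPM (n = 7). Macrophage-like cells held 90.4 ± 16.2 CPM (n = 4), a level near that of capillary-like cells. In venous-like cells Entpd1 was higher in run B than in run A in 4 of 4 groups, by 1.08 ± 0.46 on the log2 scale.

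Across the 32 class-by-library values, after each library's mean over its classes was subtracted, the closest pairs among the 8 genes were F8 with Tfpi (Pearson r = 0.79), Vwf with Entpd1 (0.71), Vwf with Procr (0.58) and Procr with F8 (0.58). F2r ran opposite to Entpd1 (-0.81) and to Vwf (-0.70). These values share libraries and depth and have no p. Among 7477 genes the most alike to Vwf were Myrip (0.943), a gene known to act in the traffic of the granules that store Vwf, Rps27 (0.918) and Ehd4 (0.918). Entpd1 was followed most closely by Hoxb9 (0.977), Mrtfb (0.973) and Ptprb (0.966). F2r had Serpine2 (0.913), which encodes an inhibitor of thrombin, Cmtm7 (0.901) and Lama4 (0.888). For Plat these were Slc45a4 (0.919), Efna5 (0.889) and Tmem100 (0.886), and for Procr Arrb1 (0.924), Cpe (0.904) and Kank1 (0.891). F8 was closest to Ipo11 (0.931), Sntb2 (0.930) and Dstn (0.909), and Tfpi to Irf8 (0.928), Lamb1 (0.924) and Bin1 (0.923). Thbd had no close neighbour, the nearest being Col13a1 (0.741), Slc39a13 (0.735) and Tra2b (0.725).

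The effect of diet and tissue on the 8 genes was then tested on the counts summed per library, with edgeR's quasi-likelihood test in arterial-like, capillary-like, venous-like, lymphatic-like and all endothelial cells. The contrasts were the diets in each of the tissues, the tissues on each of the diets, and the interaction of both factors. F8 was too low to be tested in arterial-like cells and Entpd1 in lymphatic-like cells, which left 190 tests of members. Without a term for the run, edgeR called 0 of the 190 at a Benjamini-Hochberg adjusted p under 0.05, and 11 had an unadjusted p under 0.05. The background was as low: 0% of genes were called in 24 of the 25 comparisons and 0.166% in lymphatic-like cells between the tissues on chow. The labels say the experiment was repeated, so the runs pair the samples, and a fit with the run as a replicate block was read beside it. It called 4 of the 190 (2.11%; 0.717% over all 261750 gene tests), all between the tissues on chow, and 44 had an unadjusted p under 0.05. Over all genes the share with such a p differed between comparisons. Without the block it ran from 12 of 9127 genes (interaction, arterial-like cells) to 686 of 9019 (tissues on chow, lymphatic-like cells). With the block it ran from 138 of 10487 genes (interaction, capillary-like cells) to 1415 of 9019 (tissues on chow, lymphatic-like cells). DESeq2 with the block called 3 between the tissues on chow and 3 between the diets in the mesentery, and without it 0 in every comparison. The shares of all genes that DESeq2 called are not given here.

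The shares of genes that edgeR called with the block give the background for its counts. Between the tissues on chow they were 1.1% in arterial-like, 0.477% in capillary-like, 2.05% in venous-like, 5.75% in lymphatic-like and 0.636% in all endothelial cells. In the same order, between the diets in the mesentery they were 0.931%, 1.24%, 0.19%, 4.12% and 0.053%. For the diets in adipose tissue these shares were 0.373%, 1.54%, 0.124%, 0% and 0.00757%. Between the tissues on high fat diet 0.121%, 0.238%, 0.276%, 0.0887% and 0% of genes were called, and for the interaction 0.0329%, 0.0858%, 0%, 0% and 0%.

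On chow, Plat was higher in arterial-like cells of the mesentery than of adipose tissue. The mesentery held 470 and 272 CPM (runs A and B) and adipose tissue 207 and 141 CPM, so the groups did not overlap. The log2 change was 1.06 ± 0.25 (SE) with edgeR adjusted p 0.0212 with the block, and 1.08 ± 0.42 with edgeR adjusted p 1.00 without it. In cluster 6 the tissues did not overlap (552 and 386 CPM against 123 and 170 CPM), and in cluster 4 they did (398 and 166 CPM against 270 and 130 CPM), although each run alone was higher in the mesentery. The call was lost without mesentery on chow A (edgeR adjusted p 0.0685), mesentery on chow B (0.0628) or adipose on chow B (0.492), and the log2 change was 0.82 to 1.39 over all libraries left out in turn. It was also lost with DESeq2 and the block (DESeq2 adjusted p 0.137), with doublets kept (0.73, edgeR adjusted p 0.293) and at 20% mitochondrial counts (edgeR adjusted p 0.0836). Fibroblast markers, 8 of them, summed to 61.5 to 79.9 CPM in the mesentery and 19.6 to 88.7 CPM in adipose tissue, with 0 to 6 of them at 0 in a library. Mural markers, 10 of them, summed to 113 to 202 CPM in the mesentery and 230 to 443 CPM in adipose tissue (0 to 7 at 0), without overlap. Mural-like cells held Plat at 45.3 ± 36.3 CPM (n = 6), with means of 87.3 CPM in run A and 24.3 CPM in run B. The part of both lists was not tested. With the Klk10 cluster counted as arterial-like, an alternative chosen after the data were seen, Plat differed by 1.55 (edgeR adjusted p 0.00118 with the block) and F2r was called too (1.95, edgeR adjusted p 0.000881, against 1.07 with edgeR adjusted p 0.44 as grouped here). On high fat diet the mesentery held 224 and 193 CPM and adipose tissue 141 and 171 CPM of Plat, with edgeR adjusted p 1.00 in both fits.

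F8 was lower in venous-like cells of the mesentery on chow, with 69.3 and 37.8 CPM (203 and 157 counts), than in those of adipose tissue, with 184 and 185 CPM (91 and 515 counts). The groups did not overlap. The log2 change was -1.91 ± 0.25 with edgeR adjusted p 0.000805 with the block and -1.76 ± 0.58 with edgeR adjusted p 1.00 without it. Different clusters hold this class in the 2 tissues. Cluster 13, the highest in F8 among the venous-like clusters, had enough cells only in adipose tissue. The part of this mix of clusters in the change was not tested. Cluster 7, present in both tissues, was a minority of the mesenteric class on chow. In that cluster alone F8 was at 17.5 and 9.87 CPM in the mesentery and 55.6 and 41.6 CPM in adipose tissue. The sum of the same 8 fibroblast markers moved with it (21.7 to 30.0 CPM in the mesentery with 2 to 4 at 0, 218 to 461 CPM in adipose tissue with 0 to 3 at 0), and fibroblast-like cells themselves held F8 at 1.49 ± 2.23 CPM (n = 8). Lymphatic markers, 8 of them, summed to 1896 to 3657 CPM in the mesentery (0 at 0) and 67.0 to 233 CPM in adipose tissue (0 to 2 at 0), so they were higher where F8 was lower, and the part of both lists was not tested. Without adipose on chow B the call was lost (-1.45, edgeR adjusted p 0.0802). The change on high fat diet pointed the same way, -1.01 ± 0.28 with edgeR adjusted p 0.284 with the block. Over all endothelial cells F8 pointed the other way on chow. There DESeq2 with the block called it higher in the mesentery (1.90, DESeq2 adjusted p 0.0391), and neither edgeR fit called it. These cells include the Marco cluster, whose part was not tested.

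F2r was higher in lymphatic-like cells of the mesentery on chow, at 175 and 225 CPM, than in those of adipose tissue, at 72.2 and 101 CPM, with no overlap. The log2 change was 1.26 ± 0.23 with edgeR adjusted p 0.00444 with the block and 1.26 ± 0.39 with edgeR adjusted p 0.313 without it. Cluster 26, with the highest F2r, had enough cells in the mesentery on chow only, where it made up 13.0% of the class in run A and 36.7% in run B. In cluster 5 the mesentery held 91.5 and 126 CPM and adipose tissue 57.9 and 102 CPM, and in cluster 12 124 and 236 CPM and 162 and 98.9 CPM, so within these clusters the tissues overlapped. Each run alone was higher in the mesentery in cluster 5, and only run B was in cluster 12. Mural markers, 10 of them, summed to 155 to 248 CPM in the mesentery and 60.8 to 90.3 CPM in adipose tissue (2 to 5 at 0 in a library). Mural-like cells held F2r at 41.5 ± 42.8 CPM (n = 6), with means of 92.9 CPM in run A and 15.8 CPM in run B. Cluster 21, a part of the mural-like class with 94.2 CPM, had 0 cells in mesentery on chow. Platelet markers, 9 of them, summed to 62.9 to 132 CPM in the mesentery (6 to 7 at 0) and 1.22 to 1.39 CPM in adipose tissue (8 at 0). Of these, cluster 26 in mesentery on chow held Itga2b at 240 and 167 CPM and Pf4 at 30.5 and 98.8 CPM (runs A and B). In the same cells Ppbp, Gp5, Gp6, Gp9 and Treml1 were at 0 CPM. The class's own 8 lymphatic markers summed to 13849 to 19363 CPM against 32066 to 45905 CPM. The 10 endothelial markers summed to 4681 to 5394 CPM against 6413 to 7220 CPM, and the part of these lists was not tested. The call was lost without adipose on chow B (1.12, edgeR adjusted p 0.138).

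Thbd was called higher in capillary-like cells of the mesentery on chow, with 535 and 167 CPM against 190 and 71.8 CPM in adipose tissue. The groups overlapped when the runs were mixed, and each run alone was higher in the mesentery. Different clusters held the class: in run B cluster 1 was 66.0% and cluster 3 28.4% of it in the mesentery, against 31.6% and 65.6% in adipose tissue, and in run A cluster 10 was 33.3% against 16.2%. In run B cluster 1 held 150 CPM of Thbd in the mesentery and 61.9 CPM in adipose tissue, and cluster 3 185 CPM and 73.2 CPM. The log2 change was 1.40 ± 0.33 with edgeR adjusted p 0.00929 with the block and 1.45 ± 0.63 with edgeR adjusted p 1.00 without it. The value of 535 CPM rests on 33 counts in 30 cells. At a minimum of 50 cells per library, which takes out both run A libraries of the mesentery, the change was 0.88 with edgeR adjusted p 1.00. Leaving out mesentery on chow A gave 0.94 (edgeR adjusted p 0.718) and leaving out adipose on chow B gave 0.72 (edgeR adjusted p 0.925), and DESeq2 with the block did not call it (DESeq2 adjusted p 1.00). The call was lost as well without mesentery on chow B (2.19, edgeR adjusted p 0.164), without either run B library on high fat diet (edgeR adjusted p 0.112 and 0.178), at 20% mitochondrial counts (edgeR adjusted p 0.134) and with finer clusters (edgeR adjusted p 0.28). Adipocyte markers, 8 of them, summed to 422 to 5008 CPM in the mesentery and 310 to 4777 CPM in adipose tissue (0 to 4 at 0). Fibroblast markers summed to 16.2 to 33.5 CPM against 38.9 to 70.0 CPM and 9 macrophage markers to 32.4 to 52.5 CPM against 0 to 11 CPM, both without overlap, and the part of these lists was not tested.

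**Figure D3:**
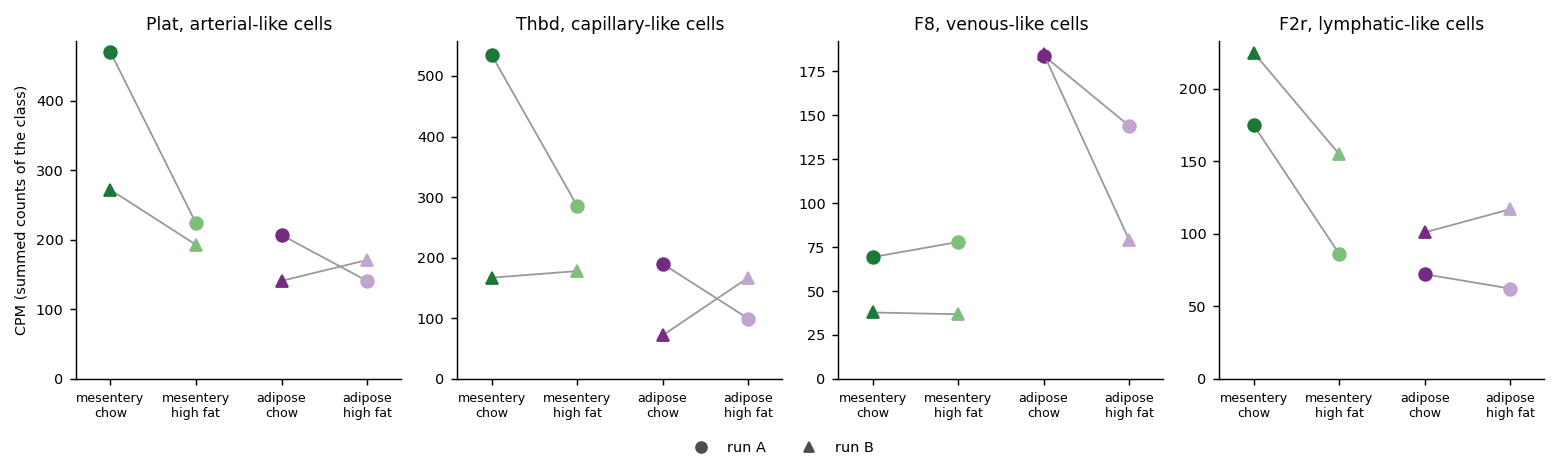
Level (CPM, linear axis from 0) of the 4 gene and class pairs called between the tissues on chow, in each library of the 4 groups; circles are run A, triangles run B, and grey lines join the diets of 1 tissue and run. The run B and run A values of F8 in adipose on chow lie together at 185 and 184 CPM, while Thbd in mesentery on chow is at 535 CPM in run A and 167 CPM in run B.

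No member was called between the diets in either tissue, or for the interaction, in either edgeR fit. The diet changes closest to the threshold were all in lymphatic-like cells. Vwf in adipose tissue stood at 29.2 and 76.6 CPM (21 and 63 counts) on chow, and at 9.77 and 5.67 CPM (8 and 5 counts) with the high fat diet, with no overlap. These levels overlap with those of background classes. Vwf averaged 18.4 ± 18.1 CPM in B cell-like (n = 4; highest 42.7 CPM) and 9.44 ± 16.0 CPM in T cell-like cells (n = 6; highest 41.7 CPM). Adipocyte-like cells held 61.7 ± 108 CPM (n = 4; highest 223 CPM), but their median was 12.1 CPM. Their mean was 111 CPM in run A and 12.1 CPM in run B. The part of transcript from other cells was not tested. The log2 change of Vwf was -2.70 ± 0.44 with edgeR adjusted p 0.0795 with the block and -2.73 ± 0.66 with edgeR adjusted p 1.00 without it. It was called without the filter on low counts (-2.69, edgeR adjusted p 2.81e-07 with the block, and -2.71, edgeR adjusted p 0.000254 without it). With the block it was also called without each mesenteric library in turn (-2.70 to -2.72, edgeR adjusted p 0.00271 to 0.0138) and without adipose on high fat diet A (-3.60, edgeR adjusted p 0.0287). In the mesentery the chow libraries held 33.0 and 77.0 CPM of Vwf and those on high fat diet 29.9 and 51.6 CPM, and the interaction had edgeR adjusted p 0.166 with the block.

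In lymphatic-like cells of the mesentery F2r went from 175 and 225 CPM (chow) to 86.3 and 155 CPM (high fat diet; log2 change -0.79 ± 0.21, edgeR adjusted p 0.0583 with the block). F8 went from 98.9 and 238 CPM to 65.9 and 102 CPM (-0.98 ± 0.27, edgeR adjusted p 0.0601 with the block). The clusters of the class differed between these diets: cluster 26, high in both genes, was 13.0% and 36.7% of it in the chow libraries, against 4.62% and 0.769% with the high fat diet. In cluster 5 alone F2r was at 91.5 and 126 CPM (chow) and 71.6 and 160 CPM (high fat diet), and F8 at 15.5 and 23.8 CPM and 51.3 and 107 CPM. Summed markers differed as well, without overlap: lymphatic markers went from 13849 to 19363 CPM (chow) to 28424 to 35975 CPM (high fat diet). Mural markers were at 155 to 248 CPM in the former and 45.0 to 87.6 CPM in the latter. Platelet markers, of which cluster 26 held Itga2b and Pf4 as given above, were at 62.9 to 132 CPM and 7.69 to 17.0 CPM. The part of these lists was not tested. In adipose tissue the chow libraries had 72.2 and 101 CPM of F2r and those on high fat diet 62.3 and 117 CPM, and F8 was at 142 and 163 CPM in the former and at 121 and 202 CPM in the latter. The class value of F8 depended on where the Marco cluster was placed. When called doublets were kept, or up to 20% mitochondrial counts allowed, those cells joined the Coch cells in 1 cluster named lymphatic-like (534 and 594 cells). The diet change of F8 in the mesentery was then -2.15 and -2.13 (edgeR adjusted p 0.00139 and 0.00251 with the block), and the tissue change on chow 2.07 and 1.96 (0.000797 and 0.00191), against 0.11 with edgeR adjusted p 0.919 as grouped here. The Marco cluster made up 4.75% and 5.10% of endothelial cells in mesentery on chow, against 1.74% and 0.0821% with the high fat diet.

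In arterial-like cells the diet changes in the mesentery were -0.76 ± 0.24 for Plat and -1.39 ± 0.44 for F2r with the block (edgeR adjusted p 0.223 and 0.19). F2r was at 32.9 and 30.8 CPM (7 and 54 counts) on chow, and at 3.86 and 13.4 CPM (1 and 41 counts) with the high fat diet. The Klk10 cluster, with high Plat and F2r, made up 8.48% and 6.07% of endothelial cells in mesentery on chow, against 3.62% and 1.03% with the high fat diet. When it was counted as arterial-like, the block fit called F2r (-1.86, edgeR adjusted p 0.00201), Procr (-1.52, 0.00983) and Plat (-0.95, 0.0389) as lower on high fat diet.

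Over all endothelial cells, Vwf was at 1207 and 689 CPM in mesentery on chow, against 430 and 286 CPM with the high fat diet. Procr was at 279 and 137 CPM, against 103 and 50.4 CPM. The log2 changes were -1.37 ± 0.29 for Vwf and -1.45 ± 0.31 for Procr with the block (edgeR adjusted p 0.133 and 0.134), and DESeq2 with the block called both, and F8 (-2.22, DESeq2 adjusted p 0.0129). Within venous-like cells the same diet changes were -0.34 ± 0.27 for Vwf and -0.77 ± 0.26 for Procr (edgeR adjusted p 1.00 and 0.466 with the block). The venous-like share of endothelial cells was 46.8% and 22.1% in mesentery on chow, against 12.9% and 14.3% with the high fat diet. A lower share of venous-like cells and a lower level within all cells cannot be told apart in these sums.

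**Figure D4:**
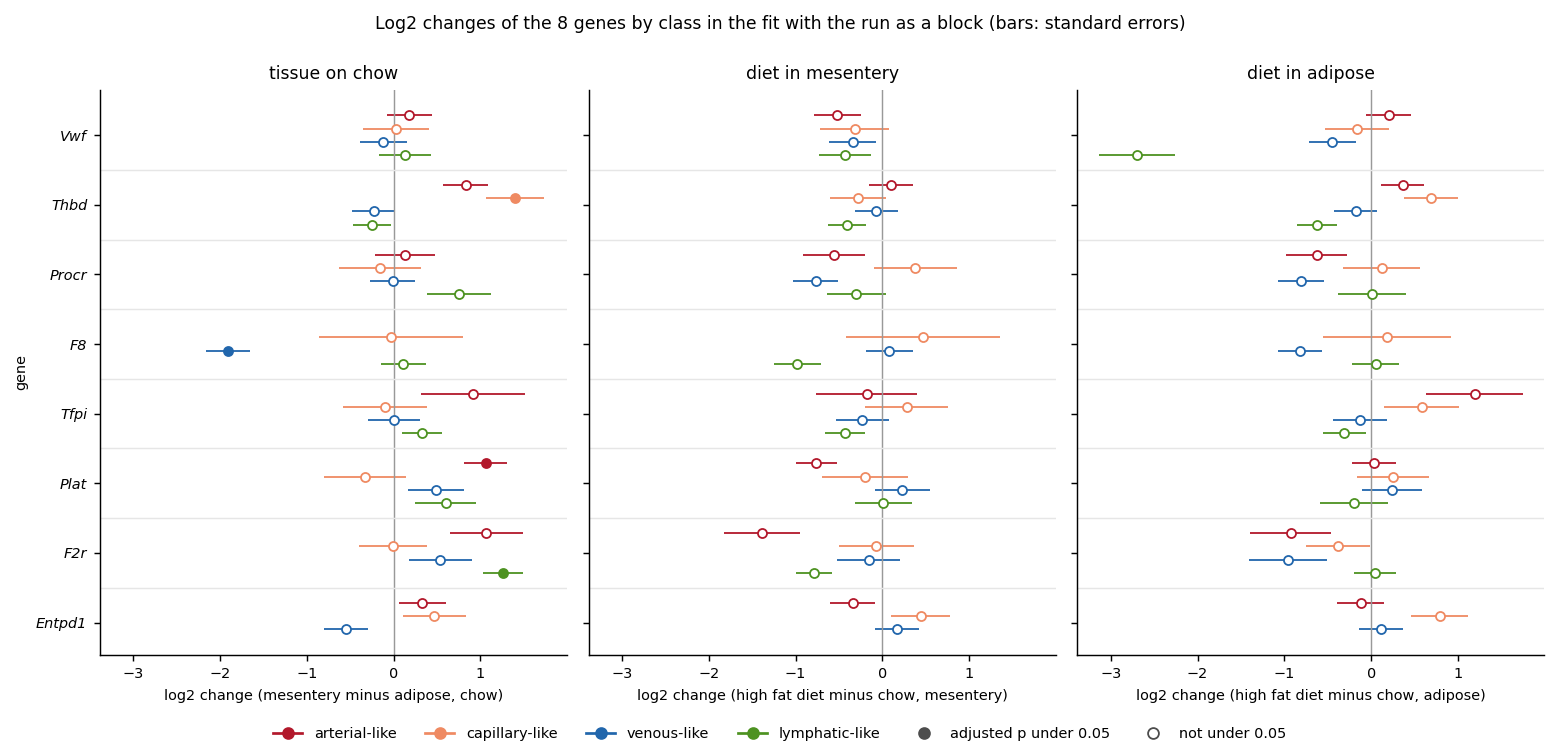
Log2 changes (x axis) with standard errors of the 8 genes in the 4 endothelial classes, from the edgeR fit with the run as a block, for the tissues on chow and the diets in each tissue. Filled points have an adjusted p under 0.05; the 4 filled points are Plat, Thbd, F8 and F2r in the left panel, and Vwf in lymphatic-like cells of adipose tissue is the lowest open point at -2.70.

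Of the wider haemostasis list, 61 other genes of coagulation, anticoagulation, fibrinolysis, Vwf storage and clearance, and nucleotide breakdown, 24 to 39 could be tested in a cell set. Without the block 0 of 755 tests were called. With it 15 were called (1.99%, against 0.717% over all 261750 gene tests), 7 higher and 8 lower. Diet changes in lymphatic-like cells of the mesentery made up 6 of them, from 27 list genes tested there, and 5 rose and 1 fell. The share of all genes called in that comparison was 4.12%. The list's median log2 change there was -0.03, that of the members -0.43 and that of all genes -0.01. Tfpi2, a relative of Tfpi, rose from 13.0 and 13.7 CPM (chow) to 23.1 and 62.6 CPM (high fat diet) (1.62 ± 0.37, edgeR adjusted p 0.0291). Plau, the urokinase activator of plasminogen, rose from 13.0 and 13.7 CPM to 21.1 and 69.2 CPM (1.74 ± 0.38, edgeR adjusted p 0.0227). Anxa2, part of a cell-surface receptor for plasminogen and tPA, rose from 490 and 318 CPM to 791 and 645 CPM (0.83 ± 0.21, edgeR adjusted p 0.0427). Angpt2, a protein stored with Vwf, rose from 123 and 35.5 CPM to 266 and 268 CPM (1.92 ± 0.34, edgeR adjusted p 0.00801). Entpd2, an ectonucleotidase related to Entpd1, fell from 26 and 44.6 CPM to 2.04 and 1.10 CPM (-4.31 ± 0.64, edgeR adjusted p 0.00308). These calls go with the different shares of cluster 26 on the 2 diets and the marker sums given above for F2r and F8, whose part was not tested, and a change within cells and another mix of clusters cannot be told apart.

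Between the tissues on chow, Entpd2 was also higher in mesenteric than in adipose lymphatic-like cells (26 and 44.6 CPM against 4.17 CPM and 0 counts, which allows up to 3.65 CPM, 4.17 ± 0.70, edgeR adjusted p 0.00283 with the block), while Plau (-1.81 ± 0.39, 0.0134) and Angpt2 (-1.42 ± 0.34, 0.0252) were lower. In venous-like cells S100a10, the partner of Anxa2, was higher in the mesentery (1.07 ± 0.24, edgeR adjusted p 0.0321) and the prostacyclin synthase gene Ptgis lower (-1.79 ± 0.37, edgeR adjusted p 0.0197). Adora2a, an adenosine receptor gene, was called lower in the mesentery in arterial-like cells (-2.06 ± 0.49, edgeR adjusted p 0.0245) and in all endothelial cells (-1.77 ± 0.21, edgeR adjusted p 0.0249), although its groups overlapped across runs in both. In arterial-like cells run A held 0 CPM of it in both tissues, so that call rests on run B (8.54 CPM in the mesentery, 37.0 CPM in adipose tissue). In capillary-like cells Cd63 was lower in the mesentery on high fat diet (-1.52 ± 0.35, edgeR adjusted p 0.00721) and Angpt2 lower on high fat diet in adipose tissue (-1.75 ± 0.44, edgeR adjusted p 0.00613). In capillary-like cells Angpt2 was lower in run B alone, with 10.8 CPM against 53.9 CPM on chow, and in run A it was 33.2 CPM against 30.0 CPM. In run B the class was 65.6% cluster 3 and 2.77% cluster 10 on chow, against 2.58% and 43.0% with the high fat diet. Cd63 on high fat diet was at 0 CPM in the 33 mesenteric cells of run A and at 34.5 CPM in run B, against 163 and 69.4 CPM in adipose tissue. For Cd63, cluster 10 was 57.6% of the class in the mesentery and 7.56% in adipose tissue in run A. All of these calls come from the fit with the block, and none was made without it.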

How the data were processed

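The authors deposited UMI counts of each gene in each barcode, not normalised. Per the file headers, Cell Ranger 3.0.2 made the counts of run A and 5.0.0 those of run B, and the submitters' processing notes name mm10 and Seurat 4.3.0. No source used here gives the annotation or the counting settings. Kept were barcodes of 500 UMIs or more, 300 genes or more and at most 10% mitochondrial counts (23970), and 823 called doublets (3.43%) were removed with a nearest-neighbour score whose cutoff takes 0.8% per 1000 cells of a library. Counts were log-normalised, scaled within runs, reduced to 30 principal components of 2000 variable genes, aligned between runs by a re-implementation of Harmony, and clustered (Leiden, leidenalg 0.10.2, resolution 1.0, 20 neighbours) into 33 clusters.

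A cluster took the class with at least 3 markers raised 1.5-fold and a mean log2 fold of at least 0.5, unless another class had more markers among its 10 leading genes. It counted as endothelial at a mean marker level of at least 0.75 with fewer than 3 markers of other cell types among those 10. These limits were set after the clusters were seen, the class names were made here and the study's may be others, and a cluster whose leading genes went against its name is not described. A class needed 20 cells in a library. Counts were summed per library and tested with edgeR 4.0.16 (R 4.3.3; TMM, filterByExpr, glmQLFTest, all 8 libraries); DESeq2 1.42.0 was an alternative. Log2 values of class levels use CPM + 1. On simulated counts the scripts were tested before use. Beside a member's 0 count the level that 3 counts would have is given, which covers counting error only. The labels state that the experiment was repeated, so run letters pair the samples; deviations from group means correlated between groups of a run, with r over 6 pairs from 0.26 to 0.35 in capillary-like cells and from 0.48 to 0.76 in the other sets. The fit without the replicate block is the designed one.

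The members and gene lists were chosen with earlier results of these data known. All 8 members were named in every comparison; of the 61 other haemostasis genes, those called in either fit, at most 5 per comparison and set by smallest p; and for each member the 3 genes with the highest correlation over class-by-library values, among genes of at least 20 CPM in a class.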

Additional observations from a re-analysis of the deposited data

How the results depend on the processing

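The difference between the highest and the next class kept its direction and its side of the threshold for Vwf, F8, Tfpi and Plat, and for Entpd1 stayed uncalled at 0.00 to 0.31, under all 16 alternatives tried (pseudocount, TMM scaling, cell filters, doublets kept, clustering, minimum cells and each library left out). The F8 difference (0.61, uncalled) was 1.36 with doublets kept and 1.37 at 20% mitochondrial counts, where the Marco cluster joins the lymphatic-like class, and 0.32 without mesentery on chow B. Thbd, whose capillary-like excess over venous-like cells was 0.10, changed sign with TMM factors (-0.06), at 50 cells (-0.35) and without single libraries (-0.11 to 0.32). Procr (venous-like over lymphatic-like cells) was no longer called at 20% mitochondrial counts (1.60) or without 6 single libraries (range 1.42 to 1.91), and F2r (lymphatic-like over capillary-like cells) at 20% mitochondrial counts (1.65) or without adipose on chow B (1.24; range 1.04 to 1.5). With 7 libraries the smallest exact p is larger.

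Counts of called members, which were 0 without the replicate block, were 3 (diets in mesentery) and 3 (tissues on chow) with DESeq2 and the block, and 4 (tissues on chow) with the block in edgeR. Without the low-count filter they were 1 for the diets in adipose tissue (Vwf in lymphatic-like cells), 1 for the tissues on chow (F8 in venous-like cells) and 1 on high fat diet (Vwf in lymphatic-like cells), and with doublets kept 1 for the tissues on chow (F8 in lymphatic-like cells). With the block and no filter they were 4, 1, 3 and 1 for the diets in mesentery, the diets in adipose tissue, the tissues on high fat diet and the interaction. With the block, doublets kept gave 1 for the diets in mesentery and 1 for the interaction, 20% mitochondrial counts gave 1 for the diets in mesentery, and the Klk10 cluster counted as arterial-like gave 3; alternatives combined with the block were chosen after seeing the data. Leaving out 1 library in the block fit gave 0 to 7 for the diets in mesentery (7 without mesentery on chow A), 0 to 2 for the diets in adipose tissue, 0 to 6 for the tissues on chow (0 without adipose on chow B), 0 to 1 for the tissues on high fat diet and 0 to 2 for the interaction. The shares of all genes called under these alternatives are not given here, so these counts show nothing particular to the members. The cause of the changes in the counts was not tested. Run A classes of 30 to 92 cells limit the precision of mesenteric capillary-like and arterial-like values.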
